A study of Mus musculus with 24 samples.

Results

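Gene expression in the adult cochlea was compared between mice without the α9 nicotinic acetylcholine receptor subunit (α9-/-) and wild type mice at postnatal day 60 (P60). The comparison rests on 6 of the 24 arrays of the series, 3 of wild type and 3 of α9-/- cochleae, and on 18195 genes of the 45101 probe sets. Each gene was represented by the probe set with the highest mean log2 signal over the 24 arrays, among probe sets that name 1 gene. Both genotypes were a 129S6 x CBA/CaJ hybrid that had been crossed back to CBA/CaJ for several generations, and no other allele or treatment was given. The null allele was constitutive, so the subunit was missing in every tissue and from conception. Each array carried total RNA of pooled cochleae from several mice, so a replicate is a pool and its spread is that between pools. Cerebellar fragments, the semicircular canals and the auditory nerve had been removed at dissection.

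The α9 subunit, encoded by Chrna9, assembles with α10 into the acetylcholine receptor of hair cells. Efferent fibers from the brainstem release acetylcholine onto outer hair cells, where calcium entering through this receptor opens potassium channels and dampens the cell. The adult cochlea also holds resident macrophages, the ion-pumping stria vascularis, spiral ganglion neurons, and a bony shell with marrow. Whole cochleae therefore report the RNA of all these tissues together, and fewer cells of a type cannot be told apart from less RNA per cell.

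Chrna9 gave a dim signal. Its brightest probe set had log2 values of 6.33, 5.73 and 5.61 in wild type and 5.28, 5.35 and 5.27 in α9-/- cochleae. The wild type arrays were all above the α9-/- arrays, with a difference of -0.59 (standard error 0.25) that was -0.37 without wild type replicate 1. Control probe sets for transcripts of the TrpnX gene, which no mouse makes, ran from 2.84 to 4.23 on the same arrays. The values of the other Chrna9 probe sets overlapped between genotypes, and the sources used here do not say whether any of the 3 lies in the deleted part.

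One array stood apart. Wild type replicate 1 had a Gapdh 3′ control signal 6.47 above its 5′ signal (log2), while the other 5 arrays lay between -0.13 and 0.82. The β-actin controls showed the same array at 5.07 and the others between 0.63 and 1.58. Its correlation with the other arrays over all probe sets was 0.886 to 0.920, against 0.960 to 0.989 among the others. Over 3 wild type arrays the Gapdh measure averaged 2.49 ± 3.46 (SD), and over 3 α9-/- arrays -0.081 ± 0.053 (SD). An exact permutation test gave p = 0.1 (two-sided), the smallest that 3 against 3 arrays allow, and p = 0.6 for the β-actin measure. Most counts and medians of lists are therefore given with and without wild type replicate 1. So are single genes named for a difference that the array moved by over 1.5 times. The part of RNA quality was not tested further.

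No single gene passed the threshold between genotypes at P60. limma gave an adjusted p under 0.05 for 0 of 18195 genes (0.0%), and the lowest adjusted p was 0.939. At an unadjusted p under 0.05, 554 genes were lower in α9-/- (3.04%) and 111 were higher (0.61%). Values did not overlap between genotypes for 1497 lower genes (8.23%) and 271 higher genes (1.49%). Without wild type replicate 1, 383 genes were lower (2.1%) and 145 higher (0.797%) at an unadjusted p under 0.05, and again 0 passed the adjustment, with a lowest adjusted p of 0.997. The median difference over all genes was -0.12 with 6 arrays and -0.066 without that array. It was -0.16 with each array centred on its median and -0.11 after another quantile normalization.

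Immune genes were lower in α9-/- cochleae more often than genes in general. Of 159 genes in 8 immune lists, 142 were measured, and 129 of them had a lower mean in α9-/-, against 66.6% of all genes. Without wild type replicate 1, 125 of the 142 had a lower mean, against 61.0% of all genes. These all-gene shares apply to each P60 count of lower means below. Past the unadjusted threshold, the all-gene shares were 3.04% lower and 0.61% higher, and 2.1% and 0.797% without wild type replicate 1. They apply to each P60 count past that threshold below that gives no share of its own. At an unadjusted p under 0.05, 37 immune genes were lower (26.1%, against 3.04% of all genes) and 0 were higher. Values did not overlap for 33, all lower, against 8.23% of all genes. The median difference was -0.54 against -0.12 over all genes. The mean log2 signal over the 142 genes was 8.43, 8.28 and 8.12 in the wild type arrays and 7.86, 7.57 and 7.73 in the α9-/- arrays. Every wild type array thus lay above every α9-/- array.

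The number of immune genes past the unadjusted threshold depended on single arrays, and 0 were higher in each of the 6 fits that left an array out. Without wild type replicate 1 the count was 23 lower and 0 higher, with 2.1% of all genes lower, and a median of -0.44. Without α9-/- replicate 2 it was 11 lower and 0 higher, with 1.15% of all genes lower, and a median of -0.45. The other single arrays left out gave 26 to 46.

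Saa3, which encodes an acute-phase serum amyloid protein made by macrophages and epithelia, was outside the lists and had a large difference. Its log2 signal was 9.19, 9.88 and 9.33 in wild type and 8.15, 6.40 and 6.23 in α9-/- cochleae. All α9-/- values were below the wild type values, most clearly in replicates 2 and 3. The difference was -2.54 (standard error 0.50, unadjusted p = 0.00114) and -2.68 without wild type replicate 1. At P13 it was -0.10. When all 24 arrays shared 1 estimate of the spread, the adjusted p of Saa3 from limma was 0.00564, and with all arrays but wild type replicate 1 it was 0.0182. That estimate came mostly from other ages, where the standard error of Saa3 was 0.19 to 0.23, against 0.50 at P60. An adjusted p from such a shared fit therefore does not measure the spread between P60 pools alone. P2ry10, a receptor of lymphocytes named after its values were seen, was the other gene that passed in both of these fits, with adjusted p of 0.00998 and 0.0338. Its values were dim, at 6.64, 5.66 and 5.83 in wild type and 4.64, 4.68 and 4.67 in α9-/-.

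Chemokines, the secreted proteins that attract leukocytes, were the immune list with the lowest median. Of 24 listed, 22 were measured and 20 had a lower α9-/- mean, with a median of -0.97. At an unadjusted p under 0.05, 10 were lower, against 3.04% of all genes. Without wild type replicate 1, 5 were lower, against 2.1% of all genes, with a median of -0.86. Ccl5, which attracts T cells, had values of 9.22, 8.80 and 7.57 in wild type and 6.84, 6.30 and 6.55 in α9-/-. The difference was -1.97 (standard error 0.42) and -1.62 without wild type replicate 1, and the groups did not overlap. Ccl8, a monocyte attractant, had values of 10.27, 10.73 and 8.95 against 8.86, 6.29 and 8.27. Its difference of -2.18 (standard error 0.71) was -1.41 without α9-/- replicate 2, the lowest pool, and the lowest wild type value was close to the highest α9-/- value. Ccl9, made by myeloid cells, had values of 10.51, 10.02 and 9.94 against 9.15, 7.83 and 8.74, a difference of -1.58 (standard error 0.36). Its other, dimmer probe set had a difference of 0.11. Ccl12, another monocyte attractant, differed by -1.47 (standard error 0.47) with values that touched at 6.87 and 6.84.

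Several of these genes lie next to each other on chromosome 11, with Slfn8 and Wfdc17 between or beside them. Slfn8, a Schlafen gene expressed in lymphocytes and macrophages, had values of 7.76, 7.31 and 6.61 against 5.37, 5.24 and 5.83, a difference of -1.75 (standard error 0.33). Wfdc17, a secreted protein of activated macrophages, had values of 10.03, 9.60 and 8.74 against 8.09, 7.60 and 8.04, a difference of -1.55 (standard error 0.35). Neither gene overlapped between genotypes. In the stretch from Ccl2 to Wfdc17, 38 genes were measured. Its 21 Ccl, Slfn and Wfdc genes had a median of -0.93 with 10 lower at an unadjusted p under 0.05. Its 17 other genes had a median of -0.33 with 1 lower, against 3.04% of all genes. This split was chosen after the values had been seen. When all 24 arrays shared the spread, with the limit given for Saa3, Ccl5 and Slfn8 had adjusted p of 0.0322 and 0.0330 from limma. With all arrays but wild type replicate 1 neither passed.

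**Figure D1:**
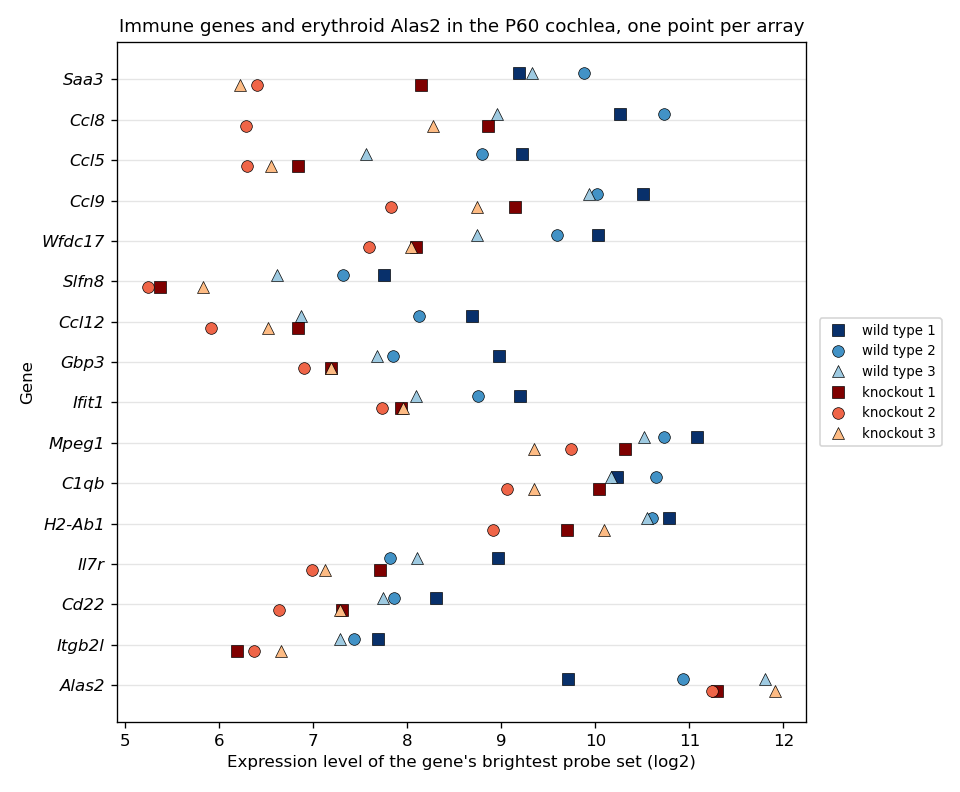
Log2 signal (x axis) of immune genes and of the erythroid gene Alas2 (y axis) in each P60 array, blue for the 3 wild type and red to orange for the 3 α9-/- pools. The immune genes shown were picked from those without overlap, which 33 of the 142 immune genes were. Their α9-/- points therefore lie left of the wild type points by choice (Saa3 6.23 to 8.15 against 9.19 to 9.88), while Alas2 overlaps.

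Macrophage and complement genes were lower as a list. All 20 were measured and 19 had a lower α9-/- mean, with a median of -0.62. At an unadjusted p under 0.05, 9 were lower, against 3.04% of all genes. Without wild type replicate 1, 4 were lower, against 2.1% of all genes, with a median of -0.67. Mpeg1, a pore-forming protein of macrophages, had values of 11.08, 10.73 and 10.52 in wild type and 10.31, 9.74 and 9.35 in α9-/-. The groups did not overlap, and the difference was -0.97 (standard error 0.30). C1qb, a chain of the complement protein that starts the classical pathway, had values of 10.23, 10.64 and 10.17 against 10.04, 9.06 and 9.35, a difference of -0.86 (standard error 0.30). The antibody receptor genes Fcer1g and Fcgr3 differed by -0.84 and -0.77, and by -0.55 and -0.77 without wild type replicate 1. C1qa, which encodes a partner chain of C1qb, was the only member with a higher α9-/- mean. It was chosen after its values were seen: 5.74 in wild type replicate 1 against 8.33 to 10.44 on the other 5 arrays, with a difference of 0.63 over all arrays and -0.82 without that array.

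Genes of the interferon response, which restrict viruses and load antigens, were mostly lower. Of 27 measured, 25 had a lower mean, with a median of -0.53. At an unadjusted p under 0.05, 7 were lower, against 3.04% of all genes. Without wild type replicate 1, 2 were lower, against 2.1% of all genes, with a median of -0.51. Gbp3, a guanylate-binding protein, had values of 8.98, 7.84 and 7.68 against 7.19, 6.91 and 7.20, a difference of -1.07 (standard error 0.36) that was -0.67 without wild type replicate 1. Tap1, which carries peptides to class I molecules, differed by -0.87 (standard error 0.32). Ifit1, which binds foreign RNA, had values of 9.20, 8.75 and 8.09 against 7.93, 7.73 and 7.95, a difference of -0.81 (standard error 0.30). Its relative Ifit2 differed by -0.75 (standard error 0.29), with the lowest wild type value at 8.36 and the highest α9-/- value at 8.35.

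The sequence upstream of these genes was searched for the core of the interferon-stimulated element, GAAA, any 2 bases and GAAA, and for a form of the NF-κB site, GGG, any 2 bases and TTTCC. Both strands of the 250 bases before each start were read, from RefSeq in GRCm38.p6. Of the 142 immune genes 107 had a promoter in the table. The interferon core was in 14.4% of their promoters against 2.98% of all promoters, and in 43.5% of those of the interferon list. The NF-κB form was in 5.93% against 1.41%. Among the 27 immune genes with a promoter and an unadjusted p under 0.05, 12.9% of promoters held the interferon core and 16.1% the NF-κB form. Not every gene with non-overlapping groups had a match: Ccl8, Ifit2 and Mpeg1 had none. Gbp3 had non-overlapping groups and the interferon core, and is not shown. The upstream bases of 3 genes are shown as examples of non-overlapping groups with a match, which is in capitals: the interferon core in Saa3 and Ifit1, the NF-κB form in Ccl9.
Saa3, chr7:46715677-46715926, minus strand: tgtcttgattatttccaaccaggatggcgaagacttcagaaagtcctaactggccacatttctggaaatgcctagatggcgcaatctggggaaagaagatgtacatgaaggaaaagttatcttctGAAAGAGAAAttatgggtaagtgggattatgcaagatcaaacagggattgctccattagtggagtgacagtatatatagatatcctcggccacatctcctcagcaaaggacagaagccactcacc
Ifit1, chr19:34640639-34640888, plus strand: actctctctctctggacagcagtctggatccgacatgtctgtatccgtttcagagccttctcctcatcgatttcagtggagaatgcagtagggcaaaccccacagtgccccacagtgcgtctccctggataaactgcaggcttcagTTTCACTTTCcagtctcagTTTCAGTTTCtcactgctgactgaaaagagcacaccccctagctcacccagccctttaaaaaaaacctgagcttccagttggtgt
Ccl9, chr11:83578637-83578886, minus strand: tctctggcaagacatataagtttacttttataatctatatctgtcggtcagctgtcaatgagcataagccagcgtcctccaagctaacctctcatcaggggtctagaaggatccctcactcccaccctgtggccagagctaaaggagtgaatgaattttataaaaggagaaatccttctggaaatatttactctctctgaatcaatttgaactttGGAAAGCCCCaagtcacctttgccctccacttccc

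Antigen-presenting and lymphocyte genes were also below wild type. All 10 measured class II genes, which present antigen on macrophages and B cells, had a lower α9-/- mean, with a median of -0.60. Without wild type replicate 1 the median was -0.71. At an unadjusted p under 0.05, 2 were lower with all arrays, against 3.04% of all genes. Without wild type replicate 1 it was 6, against 2.1% of all genes. H2-Ab1 had values of 10.79, 10.60 and 10.55 against 9.70, 8.91 and 10.09, a difference of -1.08 (standard error 0.32), while its other probe sets differed by -0.22 and 0.10. H2-Aa, its partner chain, differed by -0.62 (standard error 0.24). Of 14 T and natural killer cell genes, 13 had a lower mean, with a median of -0.31. Without wild type replicate 1 the median was -0.23, and 3 were lower at an unadjusted p under 0.05, against 2.1% of all genes. With all arrays 4 were lower at that threshold, against 3.04% of all genes. These were Cd3g and Cd3d, parts of the T cell receptor complex, Il7r, the interleukin-7 receptor, and Klrd1, a natural killer cell receptor. Their differences were -1.12, -0.74, -1.02 and -1.29, and none overlapped between genotypes. Klrd1 differed by -0.66 without wild type replicate 1. The Cd3g signal was near that of the absent-transcript controls in α9-/-, at 3.85 to 4.14.

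B cell and granulocyte genes had fewer members past the threshold. Of 20 B cell genes, 16 had a lower mean, with a median of -0.23. At an unadjusted p under 0.05, 2 were lower, against 3.04% of all genes. Without wild type replicate 1, 12 of the 20 had a lower mean, near the 61.0% of all genes, with a median of -0.11. In that fit 2 were lower at the unadjusted threshold, against 2.1% of all genes. Cd22, an inhibitory receptor of B cells, differed by -0.90 (standard error 0.27), and Ighm, the heavy chain of immunoglobulin M, by -0.81 (standard error 0.26). Of 18 neutrophil granule genes 16 had a lower mean, with a median of -0.39. Without wild type replicate 1 the median was -0.33, and 1 was lower at an unadjusted p under 0.05, against 2.1% of all genes. With all arrays 2 were lower at that threshold, against 3.04% of all genes. Itgb2l, an integrin of neutrophils, had values of 7.69, 7.43 and 7.29 against 6.19, 6.37 and 6.66, a difference of -1.06 (standard error 0.23). The other was Pglyrp1, a granule protein that binds bacterial walls, with a difference of -0.74. Mpo, the granule peroxidase, differed by -0.39 without overlap and did not pass. Of 11 eosinophil and mast cell genes, 10 had a lower mean and 1, the mast cell protease Cpa3, was lower at an unadjusted p under 0.05, with a difference of -0.70. The median of that list was -0.50. Without wild type replicate 1 it was -0.495, and 0 of the list passed. Erythroid genes, which mark the red cells of marrow and blood, did not follow. Of 15 measured, 0 were lower and 0 higher at an unadjusted p under 0.05, with a median of 0.12. Without wild type replicate 1 the counts were again 0 and 0, with a median of 0.14. Alas2, the heme synthesis enzyme of red cells, had values of 9.71, 10.94 and 11.80 against 11.29, 11.24 and 11.91.

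At P13, about hearing onset, the immune lists were lower too, in separate pools. There, wild type replicates 1 and 2 also had a low 5′ signal, with Gapdh 3′ above 5′ by 6.30 and 6.47, against 2.43 in replicate 3 and -0.15 to 0.34 in α9-/-. In the 6 P13 arrays, 81 of the 142 immune genes were lower at an unadjusted p under 0.05, against 22.1% of all genes, and their median was -0.59. Of these, 26 were also among the 37 at P60. With 81 of the 142 lower at P13, much of that overlap would arise from the count alone. Against wild type replicate 3 alone, the P13 median was -0.59 (-0.16 over all genes), with 125 of the 142 lower, against 68.8% of all genes. The lists ranked differently, with neutrophil granule genes at a median of -1.03 at P13 and -0.39 at P60, and chemokines at -0.46 and -0.97. The immune medians were 0.074 at P3 and -0.14 at P7. Whether the genotype difference itself differed between P60 and P13 was tested as an interaction over 12 arrays. limma gave 0 genes (0.0%) at an adjusted p under 0.05, with a lowest value of 1.00, and 532 (2.92%) at an unadjusted p under 0.05.

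**Figure D2:**
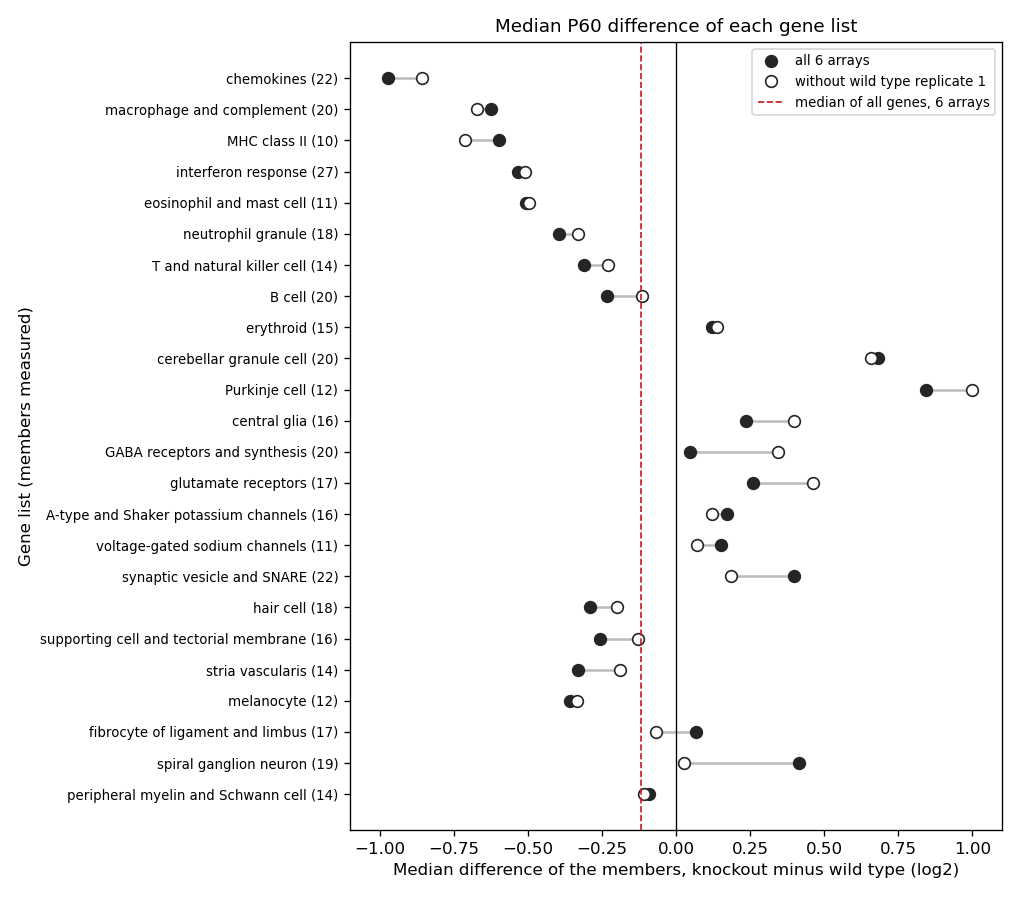
Median log2 difference, α9-/- minus wild type (x axis), of each gene list (y axis, with the number of members measured), for all 6 arrays (filled) and without wild type replicate 1 (open), with the all-gene median of -0.12 dashed. The 8 immune lists lie left of it with all arrays (chemokines -0.97), the cerebellar lists lie right of zero, and the spiral ganglion list moves from 0.42 to 0.028 without that array.

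Genes of the cerebellum made up the other group with a large median. Of 32 measured genes of granule and Purkinje cells, 29 had a higher α9-/- mean, with a median of 0.73 (0.73 without wild type replicate 1). The median was 0.275 without wild type replicate 2, 0.48 without α9-/- replicate 1 and 1.02 without wild type replicate 3. Values did not overlap for 1 lower and 1 higher of the 32 genes, against 8.23% and 1.49% of all genes. The lower was Barhl1 of the granule cell list, dim, with a difference of -0.34 and 0.098 in its other probe set. The only one of the 32 higher at an unadjusted p under 0.05, against 0.61% of all genes, was Barhl2. It is a dim transcription factor gene of the same list, with a difference of 0.74. Cerebellar genes higher at that threshold numbered 9 without wild type replicate 3 and 11 without α9-/- replicate 3, against 221 and 295 of all 18195 genes. The cerebellar count was 0 without wild type replicate 2, α9-/- replicate 1 or α9-/- replicate 2, against 227, 34 and 45 of all genes. It was 6 over all 24 arrays, against 189, and 27 with array weights, against 1053. The weights were largest for α9-/- replicate 1 (4.5) and wild type replicate 2 (2.76). These pools had the highest and lowest mean cerebellar signal. The pools of each genotype differed widely. The mean signal over the 32 genes was 8.64, 7.51 and 9.12 in wild type and 9.83, 9.42 and 8.36 in α9-/-. The α9-/- replicates 1 and 2 were highest, replicate 3 lay below 2 wild type pools, and wild type replicate 2 was lowest.

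Single cerebellar markers repeated this order. Gabra6, a GABA receptor subunit typical of cerebellar granule cells, had values of 10.80, 7.05 and 10.65 in wild type and 12.18, 11.56 and 9.30 in α9-/- cochleae. Neurod1, a transcription factor of granule cells, had values of 9.68, 7.42 and 9.60 against 12.10, 11.55 and 8.63. Pcp2, a Purkinje cell protein, had values of 9.83, 7.18 and 10.83 against 11.49, 10.98 and 9.41. In each of them the genotypes overlapped, and the differences of 1.52, 1.86 and 1.34 had standard errors of 1.105, 0.96 and 0.93. At P13 the differences of these 3 genes were -1.73, -1.66 and -2.10, with the array quality given above.

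The genes named for P60 in the study, mostly of neurotransmission and ion channels, often had the same order over the pools. Of 18 measured, 17 had a higher α9-/- mean, with a median of 0.60. At an unadjusted p under 0.05, 1 was higher, against 0.61% of all genes. In 11 of the 18, α9-/- replicates 1 and 2 were the 2 highest arrays, against 59.4% of the cerebellar genes and 5.61% of all genes. In 9 of the 18, wild type replicate 2 was also the lowest array, against 46.9% of the cerebellar genes and 1.15% of all genes. This order was looked for after the values had been seen, and the part of cerebellar tissue in these differences was not tested. The 18 were chosen in the study on these arrays, so their direction is no independent evidence.

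Gad1, the enzyme that makes GABA, had values of 10.35, 8.40 and 10.46 in wild type and 11.31, 10.87 and 8.77 in α9-/-. The GABA receptor subunit Gabrb2 had values of 9.12, 6.94 and 8.52 against 9.83, 9.62 and 7.82. Their differences were 0.58 (standard error 0.77) and 0.89 (standard error 0.68), and both overlapped between genotypes. They were 0.89 and 1.36 without wild type replicate 1. The other Gad1 probe set differed by 1.92, and those of Gabrb2 by 0.64 to 2.78. The A-type potassium channel Kcnd2 had values of 9.18, 6.99 and 8.75 against 10.50, 10.11 and 7.55, a difference of 1.08 (standard error 0.84). The sodium channel Scn2a differed by 0.88 (standard error 0.54), the potassium channel Kcnd3 by 0.62 (standard error 0.43), and the glutamate receptor Gria4 by 0.59 (standard error 0.40). Other probe sets ran from -0.52 to 1.68 for Kcnd2, 0.57 to 2.50 for Scn2a, 0.15 to 2.47 for Kcnd3 and 0.79 to 1.76 for Gria4. Gria1, another AMPA receptor subunit, was the one that passed the unadjusted threshold, with values of 6.64, 6.02 and 8.11 against 9.83, 9.41 and 7.20. Its difference was 1.89 (standard error 0.76, unadjusted p = 0.0391), and α9-/- replicate 3 lay below wild type replicate 3. The other Gria1 probe set differed by 1.32. Over whole lists, 0 of 20 GABA genes, 0 of 11 sodium channel genes and 0 of 16 potassium channel genes passed in either direction. Of 17 glutamate receptor genes 2 were higher, against 0.61% of all genes. The second of these, the kainate receptor Grik2, did not overlap, with values of 4.84, 4.81 and 4.56 against 7.17, 6.64 and 5.25. Without wild type replicate 1, 0 GABA and 0 sodium channel genes passed. In that fit 2 potassium channel and 2 glutamate receptor genes were higher, against 0.797% of all genes.

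Some pituitary hormones also differed between pools. They were looked at after prolactin appeared among the genes that wild type replicate 1 moved most. Gh, growth hormone, had a signal of 13.83 in α9-/- replicate 1 and 6.66 to 8.78 on the other 5 arrays. Prl, prolactin, had 11.49 in that pool and 10.25 in wild type replicate 1, against 4.87 to 7.70 elsewhere. Cga, the common chain of the glycoprotein hormones, had 10.40 and 7.43 in the same pools and 4.38 to 5.75 elsewhere. Fshb, a follicle-stimulating hormone chain, had 6.38 in α9-/- replicate 1 and 2.99 to 4.06 elsewhere. Pomc, Lhb and Tshb, which encode other pituitary hormones, did not stand out in that pool, with ranges of 6.77 to 7.89, 5.41 to 6.26 and 3.91 to 5.27. The genotype differences of Gh, Prl and Cga were 1.60, 0.81 and 0.70, and without α9-/- replicate 1 they were -0.56, -0.93 and -1.22. They were 2.03, 2.32 and 1.49 without wild type replicate 1. The part of pituitary tissue in other results was not tested.

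**Figure D3:**
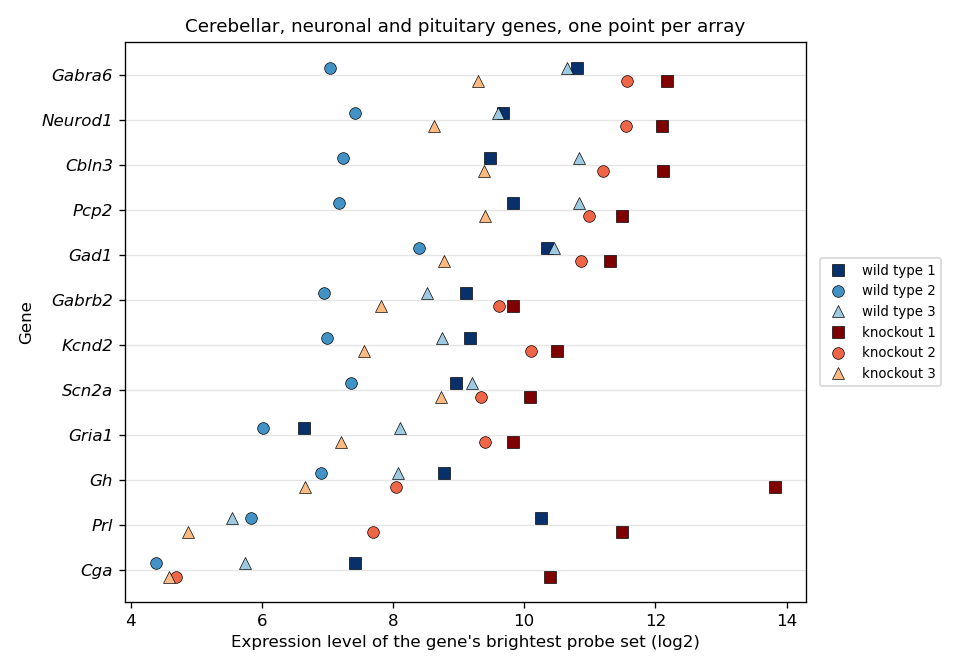
Log2 signal (x axis) of cerebellar, neuronal and pituitary genes (y axis) in each P60 array, blue for wild type and red to orange for α9-/- pools. Wild type replicate 2 is lowest and α9-/- replicates 1 and 2 are highest for Gabra6 (7.05, 12.18 and 11.56) and the neuronal genes below it, and Gh reaches 13.83 in α9-/- replicate 1.

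Genes of the cochlea's own cell types were measured as 110 members of 7 lists. At an unadjusted p under 0.05, 4 were lower (3.64%, against 3.04% of all genes) and 4 were higher (3.64%, against 0.61%). The median was -0.19, against -0.12 over all genes. Without wild type replicate 1, 4 were lower and 1 was higher, with a median of -0.13. The tissue label was borne out by Coch and Otos, made by fibrocytes of the spiral ligament, at 13.52 to 13.98 and 12.85 to 13.85 over the 6 arrays. Nefl, a neurofilament of spiral ganglion neurons, was at 12.29 to 13.12. Slc26a5, the motor protein prestin of outer hair cells, was at 4.25 to 4.68, close to the absent-transcript controls. The other hair cell markers Myo7a, an unconventional myosin, and Otof, the calcium sensor of synaptic release, were at 7.06 to 7.76 and 7.68 to 8.10.

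Hair cell genes had no member past the unadjusted threshold. Of 18 measured, 15 had a lower α9-/- mean, against 66.6% of all genes, with a median of -0.29 (-0.20 without wild type replicate 1). Otof had values of 8.10, 8.09 and 8.002 in wild type and 7.68, 7.86 and 7.87 in α9-/-, and Lhfpl5, part of the mechanotransduction channel, had 7.32, 7.30 and 7.35 against 6.91, 6.99 and 7.23. Both were separate between genotypes, with differences of -0.26 (standard error 0.19) and -0.28 (standard error 0.20). Cdh23, a tip link protein, was dim and separate in the other direction, with 4.15, 4.59 and 4.22 against 4.66, 4.92 and 4.68, a difference of 0.43 (standard error 0.22), while its other probe set differed by -0.12.

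Genes of the stria vascularis, which secretes endolymph, included the largest lower difference of the cochlear lists. Of 14 measured, 2 were lower at an unadjusted p under 0.05, against 3.04% of all genes, and 0 were higher, with a median of -0.33 (-0.19 and 1 lower without wild type replicate 1). Kcne1, the accessory subunit of the potassium channel that secretes potassium into the endolymph, had values of 9.68, 9.69 and 8.44 against 7.96, 8.42 and 8.26. The groups nearly touched, and the difference was -1.05 (standard error 0.37, unadjusted p = 0.0217). Without wild type replicate 1 it was -0.85 and no longer passed (unadjusted p = 0.0645). Its channel partner Kcnq1 had values of 8.97, 9.31 and 8.52 against 8.29, 8.56 and 8.34, a difference of -0.54 (standard error 0.26) with overlap. Esrrb, a nuclear receptor of the strial marginal cells, had values of 9.37, 8.94 and 8.82 against 8.24, 8.48 and 8.18, a difference of -0.74 (standard error 0.23, unadjusted p = 0.0133). Its dimmer probe sets differed by -1.07 and 0.47. Foxi1, a transcription factor of ion-transporting epithelia, was dim and separate in the other direction, with a difference of 0.54 (standard error 0.25). At P13 Kcne1 differed by 0.17 and Esrrb by -0.14.

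The remaining cochlear lists each had 1 to 3 members past the unadjusted threshold or none. Cldn14, a tight junction protein of the organ of Corti, was lower, with values of 7.06, 6.56 and 6.42 against 6.05, 6.09 and 5.83. Mlana, a melanosome protein, differed by -0.86 (standard error 0.35) and overlapped. Lum, a proteoglycan of connective tissue, had values of 11.69, 11.95 and 11.54 against 11.98, 12.39 and 12.43. Of 19 spiral ganglion neuron genes 3 were higher at that threshold, against 0.61% of all genes. Without wild type replicate 1 it was 1, Map1b, against 0.797% of all genes. The other Map1b probe sets differed by only 0.11 and 0.68 with all arrays. Ntrk3, the neurotrophin-3 receptor, had values of 8.01, 8.42 and 8.37 against 9.08, 8.67 and 8.71, and Stmn2, a growth cone protein, differed by 0.85 (standard error 0.32). The list's median of 0.42 was 0.028 without wild type replicate 1. Of 14 peripheral myelin genes, 0 passed, with a median of -0.092 (-0.11 and again 0 without wild type replicate 1).

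**Figure D4:**
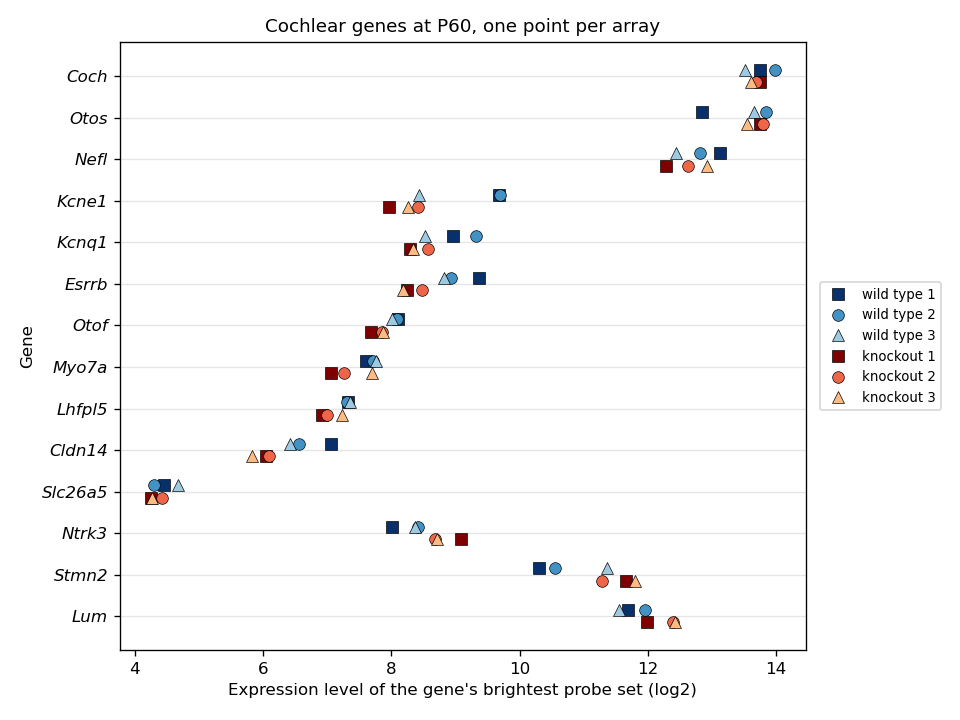
Log2 signal (x axis) of cochlear genes (y axis) in each P60 array, blue for wild type and red to orange for α9-/- pools. Coch, Otos and Nefl are bright in every pool, Kcne1 and Esrrb lie lower in α9-/- (7.96 to 8.42 and 8.18 to 8.48), and Slc26a5 is dim throughout.

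Outside the lists, the largest lower difference without overlap was that of Galc, the lysosomal enzyme that degrades galactosylceramide of myelin. Its brightest probe set had values of 8.88, 7.96 and 8.78 in wild type and 4.35, 4.35 and 6.80 in α9-/-. The difference was -3.38 (standard error 0.65) and -3.21 without wild type replicate 1, but its other probe sets differed by -0.069 and 1.07. At P3 it was -3.20, at P7 0.37 and at P13 -2.17. Taf15, an RNA-binding protein, had values of 8.43, 8.59 and 8.74 against 6.27, 5.998 and 8.01 at P60. Its other, dim probe set differed by 0.62. The brightest Taf15 probe set differed at P3, P7 and P13 by -3.24, 0.08 and -0.11, unlike Galc at the last of these ages. In both genes α9-/- replicate 3 was nearest to wild type. Rgs1, a regulator of G-protein signaling in lymphocytes, had values of 7.89, 6.96 and 6.98 against 6.49, 4.07 and 5.70. Nme1, a nucleoside diphosphate kinase, had 11.91, 9.80 and 10.80 against 9.51, 9.37 and 9.06. Its difference of -1.52 was -0.99 without wild type replicate 1, and its other probe set, about as bright, differed by 0.15. The transcripts G530011O06Rik and Tnfsf13os differed by -1.90 and -1.65.

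Among the 12 largest higher differences without overlap, many depended on wild type replicate 1. Map1b, a microtubule protein of growing axons, had values of 4.88, 9.17 and 7.75 in wild type and 9.45, 9.64 and 9.83 in α9-/-. Its difference of 2.37 was 1.18 without that array. The other Map1b probe sets differed by 0.11 and 0.68, and the brightest of these had a P60 mean of 9.09, against 8.45. Kdm6b, a histone demethylase, had 5.05, 9.96 and 9.57 against 10.38, 10.10 and 10.23. Its difference of 2.04 was 0.47 without wild type replicate 1. The other Kdm6b probe sets differed by -0.30 and 0.43, and the brightest of these had a P60 mean of 9.44, against 9.22. Rtl8c, Itgb1, Wif1, Cnnm4 and Chn1 had differences of 1.44, 1.28, 1.34, 1.69 and 1.23 with all arrays and 0.28, 0.60, 0.58, 0.94 and 0.70 without wild type replicate 1. Sv2c, a synaptic vesicle protein, gave 2.13 and 1.33, and Mctp1, a calcium-binding membrane protein, gave 1.31 and 0.96. Other probe sets of Cnnm4 differed by -0.28 and -0.08, those of Itgb1 by -0.17 to 0.64 and that of Chn1 by 0.49.

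Nptx1, Lrrtm2 and Zfp207 depended less on that array. Nptx1, a pentraxin that gathers glutamate receptors at synapses, had values of 6.47, 6.92 and 7.71 in wild type and 9.35, 8.85 and 8.07 in α9-/-. Its difference was 1.72 (standard error 0.42) and 1.44 without wild type replicate 1. The adjusted p from limma was 0.0322 when all 24 arrays shared the spread, with the limit given for Saa3. In that fit without wild type replicate 1 Nptx1 did not pass. The other Nptx1 probe set, brighter at P60 (9.10 against 7.89), differed by 1.06. Lrrtm2, a synaptic adhesion protein, had values of 6.40, 5.49 and 6.28 against 8.13, 7.75 and 6.81, with differences of 1.51 and 1.68. In both, α9-/- replicates 1 and 2 were the highest arrays, as in the cerebellar genes. Zfp207, a spindle protein, had values of 7.99, 9.62 and 9.24 against 10.82, 10.92 and 10.80, with differences of 1.90 and 1.42, while its other probe sets ran from -0.34 to 1.03.

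The genes that wild type replicate 1 moved most in the upward direction were bright on 5 arrays and dim on that one. Apoe, the lipid carrier of glia and macrophages, had a signal of 7.42 there and 12.28 to 12.996 on the others. Gnb2, a G-protein subunit, had 5.56 against 9.81 to 11.28, and Get3, which inserts tail-anchored proteins, had 4.003 against 9.48 to 10.46. Their differences of 1.57, 1.44 and 1.88 were -0.27, -0.31 and -0.12 without that array. Among 9011 genes with several probe sets, 0.222% of the brightest and 2.43% of the 16763 others were higher by more than 1.5 in α9-/-. Without wild type replicate 1 these shares were 0.1998% and 0.805%.

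**Figure D5:**
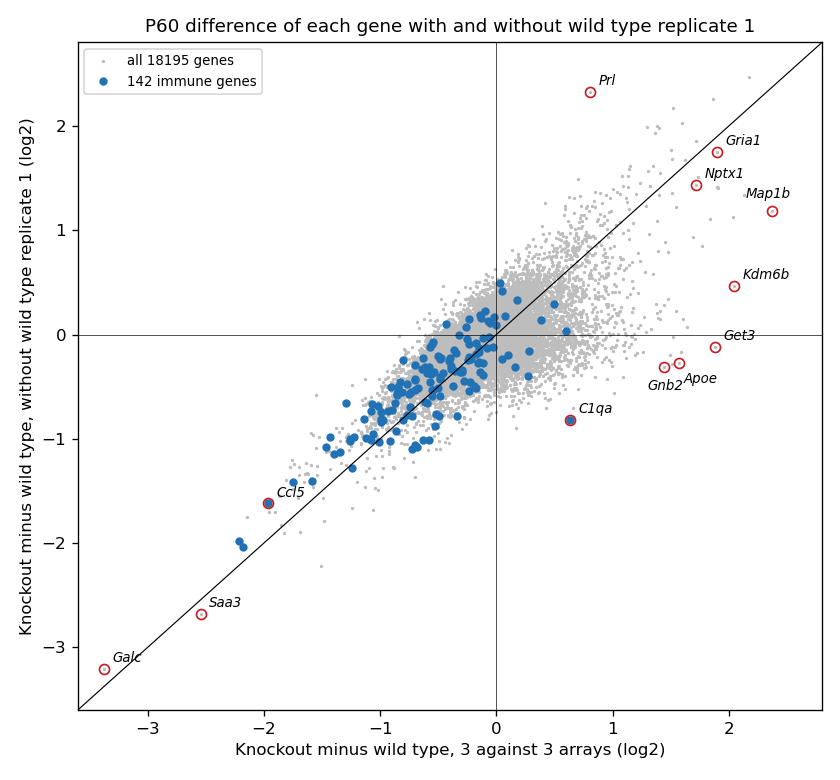
Log2 difference of each of the 18195 genes with 3 against 3 arrays (x axis) and without wild type replicate 1 (y axis), with the 142 immune genes in blue and named genes ringed; the diagonal marks equal values. Saa3 (-2.54 and -2.68) and Ccl5 lie near the diagonal, while Apoe (1.57 and -0.27), Gnb2 and Get3 lie far below it.

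A targeted allele keeps flanking chromosome of the donor strain, so genes near Chrna9 were counted. Within 10 Mb on chromosome 5, 77 genes were measured, and 5 of them (6.49%) had an unadjusted p under 0.05 at P60, against 3.65% of all genes. The counts were 3 at P3, 4 at P7 and 23 at P13, where 1.67%, 1.51% and 28.7% of all genes passed. Gm3716, which starts at -1341 kb relative to Chrna9, had values of 6.46, 5.41 and 4.98 in wild type and 4.21, 3.28 and 4.27 in α9-/-. It did not overlap between genotypes, with a difference of -1.70 at P60 (standard error 0.43), -1.51 at P3, -1.18 at P7 and -0.45 at P13. Cwh43 and Nwd2 differed by -1.03 and 0.68 at P60 (-0.68 and 0.65 without wild type replicate 1) and by 0.061 and 1.32 at P3. The others of the 5 were Atp8a1, a phospholipid flippase with a difference of 0.57, and Chrna9 itself.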

How the data were processed

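Total RNA of pooled cochleae was labelled with biotin and hybridized to Affymetrix mouse arrays. The deposited values are log2 signals of probe sets, which the authors obtained with RMA by correcting background, normalizing quantiles and summarizing probes by Tukey biweight. They were used on that scale without another normalization, which leaves small shifts between arrays. Probe sets were named from the GEO platform annotation: 34958 named 1 gene, 932 several and 9211 none, and the last 2 kinds were not used. Gene IDs were placed on GRCm38.p6 with RefSeq, where 18033 matched.

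For the 6 P60 arrays, genotypes were contrasted in limma 3.58.1 under R 4.3.3 (lmFit and eBayes, two-sided, Benjamini-Hochberg over all 18195 genes), without covariates. The script was tested on simulated data with known changes. The sources used here do not state which limma version the study used. Pools are the replicates, and their number limits the precision. Members of lists, the lists and the rule for named genes were chosen with earlier results of these data known. Named genes were taken from Chrna9, genes the study names for P60, the 12 largest non-overlapping differences in each direction with a mean log2 of at least 7 in the higher group, up to 4 non-overlapping members of each list, the 6 genes in each direction that wild type replicate 1 moved most, and up to 4 genes near Chrna9; marker and pituitary genes outside this rule were added after seeing the data. Lists are described by counts and medians, with no test. Alternatives covered arrays left out, a replicate block, filters, normalization, the estimate of spread and the probe set. Python 3.11.15 made tables and figures.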

Additional observations from a re-analysis of the deposited data

Results flagged for a closer look

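Nptx1 was the named gene whose arrays moved in opposite directions at the last 2 ages. At P60 every α9-/- value lay above every wild type value, with a difference of 1.72, and at P13 every α9-/- value lay below every wild type value, with a difference of -0.43. The interaction between age and genotype had an unadjusted p of 0.000716 and an adjusted p of 1.00 from limma over 12 arrays, so it did not pass the correction. Without the P60 wild type replicate 1 the P60 difference was 1.44. The other Nptx1 probe set, brighter at P60, differed by 1.06 at that age. The P60 pools with the highest Nptx1 signal, α9-/- replicates 1 and 2, were also those with the highest cerebellar marker signal, and the part of cerebellar tissue was not tested.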

How the results depend on the processing

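The count of genes past the adjusted threshold was 0 in 16 alternatives, leaving out each array among them. It was 5 when all 24 arrays shared 1 spread and 2 in the same fit without wild type replicate 1. Of the 16, 1 added the study's threshold on the log2 difference to the main fit, and could give only 0 because 0 genes had passed there. The study reported genes past its own threshold at P60 after a variance filter over probe sets. That filter over all probe sets was not combined here with its threshold. Counts past the unadjusted threshold varied more. Leaving out single arrays gave 34 to 295 higher and 209 to 778 lower genes. Higher and lower genes numbered 175 and 687 with a replicate block, 48 and 181 among the 40% of genes with the highest variance, and 39 and 160 among genes above the median signal, where fewer genes were tested. They numbered 189 and 1050 over all 24 arrays, 185 and 365 over those without wild type replicate 1, and 1053 and 2094 with array weights. The probe set of highest variance gave 560 and 438, and every probe set gave 1257 and 1063. Array centring gave 87 and 598.

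Immune genes lower at an unadjusted p numbered 11 to 46 when an array was left out, 47 with the replicate block, 23 in the variance filter and 14 above the median signal. Their median stayed between -0.59 and -0.44 in the alternatives run. The cochlear median was -0.087 with the probe set of highest variance. Same-numbered pools correlated in their deviations at 0.213, -0.12 and 0.511, and since the second pair did not deviate together the numbers were not taken to pair the samples. The block was also run for the interaction, where 0 genes passed as in every other alternative.

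Over all 111 genes that the naming rule gives, 11 turned in sign without wild type replicate 1. Genes with values in the text that turned in any alternative follow. With array weights it was -0.024 for Apoe, -0.17 for Gnb2, -0.021 for Otos, -0.78 for C1qa and 0.36 for Tshb. The probe set of highest variance gave 0.11 for Ccl9, 0.10 for H2-Ab1, -0.12 for Cdh23 and -0.98 for Pomc. Leaving out single arrays gave -0.27 to 2.50 for Apoe, -0.31 to 2.37 for Gnb2, -0.12 to 2.98 for Get3, -0.059 to 0.44 for Otos and -0.82 to 1.52 for C1qa. In these the lowest value was that without wild type replicate 1, also in the fit over all other arrays. The ranges were -0.082 to 1.36 for Gad1 and -0.18 to 0.047 for Coch, turned by wild type replicate 2. They were -0.56 to 3.02 for Gh, -0.93 to 2.38 for Prl and -1.22 to 1.69 for Cga, lowest without α9-/- replicate 1. So were Fshb at -0.42 to 1.27 and Pomc at -0.056 to 0.46, the latter also -0.027 without wild type replicate 2. Tshb ran from -0.39 to 0.28, highest without wild type replicate 1 in both fits, and was 0.16 without α9-/- replicate 3. Prl was also -0.028 without wild type replicate 3, and Cga -0.031 without wild type replicate 2. The cause of these changes was not tested. The share near Chrna9 was 9.52% within 5 Mb, 5.65% within 20 Mb and 5.19% without wild type replicate 1. With 3 arrays a genotype, differences of dim genes near the absent-transcript controls are least certain.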
